A study of Mus musculus with 12 samples.

Results

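The basement membrane is the thin sheet of extracellular matrix on which epithelial cells rest. It is built on a network of laminin trimers, each made of an alpha, a beta and a gamma chain, and a second network of type IV collagen, which nidogens and the heparan sulphate proteoglycan perlecan link together. In the early mouse embryo it is the first extracellular matrix to form, where it underlies the epiblast, and parietal endoderm and fibroblasts are known as rich producers of its components. The 10 genes examined here encode the alpha chains laminin alpha 1 and alpha 5 (Lama1 and Lama5), the laminin beta 1 chain (Lamb1), the laminin gamma 1 chain (Lamc1), the collagen IV chains alpha 1 and alpha 2 (Col4a1 and Col4a2), nidogen 1 and nidogen 2 (Nid1 and Nid2), perlecan (Hspg2) and the collagen-binding glycoprotein SPARC (Sparc). They were chosen by name, and every probe set annotated to one of them alone was taken, which gave 11 of the 41345 probe sets on the array, with 2 for Nid1 and 1 for each of the other genes.

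Total RNA of male E14.wt cells, a line of mouse embryonic stem cells (mESCs) of 129P2/OlaHsd background, was measured on 12 Affymetrix Mouse Gene 2.0 ST arrays in 2 experiments. All cells had been grown on CD1 feeder cells, were freed from them with collagenase and dispase for a passage without feeders, and received a lentiviral pLKO.1 vector expressing a short hairpin RNA (shRNA), with 1 shRNA clone for each target. Experiment A holds 3 arrays labelled shcontrol_A (non-target shRNA) and 3 labelled shMsl1_A (shRNA against Msl1, a subunit of the MSL histone acetyltransferase complex). Experiment B holds 3 arrays labelled shcontrol_B (non-target shRNA) and 3 labelled shNsl1_B (shRNA against the subunit that the study calls Nsl1, encoded by Kansl1, of the NSL histone acetyltransferase complex). The study's methods name the replicates as independent and biological. All values are log2 signals, and 3 values of a group are given in the order of the replicate numbers 1, 2 and 3, which are labels only.

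The targeted genes were examined first. For Msl1 (probe set 17256162) the arrays labelled shcontrol_A gave 8.56, 6.90 and 8.62, and those labelled shMsl1_A gave 6.77, 9.18 and 7.64. The array labelled shcontrol_A 2 was therefore low in Msl1 and the array labelled shMsl1_A 2 was higher than every control, against their labels, and directions drawn from experiment A are given for the arrays as labelled. Kansl1 was lower on all 3 arrays labelled shNsl1_B by probe set 17547591, with 7.33, 7.30 and 7.36 on those labelled shcontrol_B and 6.45, 6.56 and 6.71 on those labelled shNsl1_B. By its probe set 17270621 the groups overlapped, with 9.14, 9.36 and 9.52 against 8.47, 8.92 and 9.30. Arrays of a group correlated over all probe sets at r = 0.965 to 0.995 (Pearson, across probe sets, which are not independent). The array medians were 5.58 to 5.78.

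Of the structural chains, the collagen IV genes are considered first, because their promoter windows overlap head to head. RefSeq sequences of the windows from 250 bases before to 50 bases after the gene start (GRCm38.p6) matched 7 of the 10 genes, and not Lama1, Lamc1 and Nid2. The Col4a1 window (chr8:11312777-11313076, minus strand) and the Col4a2 window (chr8:11312555-11312854, plus strand) overlap by 78 bases, chr8:11312777-11312854, which are in capitals in both sequences below. They are read in opposite directions, so that the capitals in one are the reverse complement of those in the other. The third sequence is the window of Nid1 (chr13:13437352-13437651, plus strand), the gene with the widest range over the arrays, with its GGGCGG and the reverse complement of CCAAT in capitals.
Col4a1: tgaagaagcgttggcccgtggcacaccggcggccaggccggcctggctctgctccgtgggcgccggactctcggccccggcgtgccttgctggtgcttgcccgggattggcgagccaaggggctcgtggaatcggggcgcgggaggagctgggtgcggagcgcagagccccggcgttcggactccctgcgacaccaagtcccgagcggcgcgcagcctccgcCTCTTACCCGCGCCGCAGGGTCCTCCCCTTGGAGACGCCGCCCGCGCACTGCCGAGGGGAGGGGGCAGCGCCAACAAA
Col4a2: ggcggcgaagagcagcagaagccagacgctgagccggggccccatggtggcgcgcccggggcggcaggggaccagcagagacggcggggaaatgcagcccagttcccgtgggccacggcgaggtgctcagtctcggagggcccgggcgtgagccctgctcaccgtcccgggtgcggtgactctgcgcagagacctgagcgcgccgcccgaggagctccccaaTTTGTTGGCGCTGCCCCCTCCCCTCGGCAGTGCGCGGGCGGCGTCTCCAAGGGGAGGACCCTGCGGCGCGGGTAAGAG
Nid1: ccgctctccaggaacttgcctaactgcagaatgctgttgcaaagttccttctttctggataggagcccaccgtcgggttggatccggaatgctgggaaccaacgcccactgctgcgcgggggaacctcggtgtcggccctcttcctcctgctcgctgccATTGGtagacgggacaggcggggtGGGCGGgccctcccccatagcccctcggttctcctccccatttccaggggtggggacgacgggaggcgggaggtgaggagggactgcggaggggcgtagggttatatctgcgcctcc

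The 78 shared bases held 73.1% G or C and 1 match to GGGCGG. The windows of Col4a1 and Col4a2 had a G and C content of 74.0% and 73.7%, that of Nid1 64.7%, and the median of all promoter windows was 52.7%. Counted on both strands, GGGCGG was found in 6 of the 7 windows, all but that of Sparc, and in 35.7% of 32851 promoter windows of the same length. The letters CCAAT were found in 4 of 7, against 37.4%. The letters TATAAA, found in 13.6% of windows, were in none of the 7. The same held for TGACTCA, found in 5.20%. No motif searched contains another. The only GGGCGG match of Col4a1 lies in the bases shared with Col4a2. The 7 windows held 55.3% to 74.0% G or C and were not set against windows of like content. A match is therefore a description of the sequence only.

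Col4a1 and Col4a2, whose products form the common collagen IV trimer of 2 alpha 1 chains and an alpha 2 chain, varied together. Col4a1 gave 7.09, 6.56 and 6.90 on arrays with the label shcontrol_A, 6.87, 8.51 and 8.48 on those labelled shMsl1_A, 7.16, 7.61 and 7.94 on those labelled shcontrol_B, and 6.76, 7.75 and 8.04 on those labelled shNsl1_B. Col4a2 was 6.30, 6.01 and 6.17, then 6.11, 7.97 and 7.72, then 6.43, 7.35 and 7.60, and finally 6.41, 7.29 and 7.62 in the same order of groups. For both genes the highest arrays were numbers 2 and 3 of shMsl1_A, numbers 2 and 3 of either group of experiment B were above every shcontrol_A array, and number 1 of shMsl1_A was within the range of shcontrol_A.

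The laminin chains were high and low on much the same arrays with narrower ranges, 1.15 to 1.56 over the 12 arrays against 1.95 and 1.96 for Col4a1 and Col4a2. Lama1, the alpha chain of the embryonic laminin-111, was 9.05, 8.38 and 8.88 on shcontrol_A, 8.68, 9.27 and 9.41 on shMsl1_A, 9.08, 9.20 and 9.52 on shcontrol_B, and 8.74, 8.88 and 9.62 on shNsl1_B. Lama5, the alpha chain of laminin-511, was 9.83, 9.59 and 9.79, then 9.78, 10.45 and 10.55, then 9.74, 10.03 and 10.49, and finally 9.53, 10.18 and 10.68. For both alpha chains the array shNsl1_B 3 was the highest of all 12. Lamb1, the beta chain shared by both of these trimers, was 9.54, 8.86 and 9.27, then 9.06, 10.24 and 10.07, then 9.62, 9.99 and 10.27, and finally 9.48, 10.15 and 10.43. Lamc1, the gamma chain that most laminins contain, was 10.80, 10.32 and 10.52, then 10.58, 10.91 and 11.06, then 10.92, 11.04 and 11.45, and finally 10.91, 11.21 and 11.66. Lamc1 was the only laminin chain for which all arrays of experiment B lay above all those labelled shcontrol_A, and the groups of experiment B overlapped each other for every chain.

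The linkers differed from each other in range. Nid1, which binds the laminin gamma 1 chain and collagen IV, was 9.82, 9.67 and 9.83 on shcontrol_A, 9.89, 11.25 and 11.05 on shMsl1_A, 9.67, 10.72 and 11.05 on shcontrol_B, and 9.63, 10.83 and 11.53 on shNsl1_B by probe set 17285225. Its other probe set, 17285244, was 9.47, 9.20 and 9.50, then 9.32, 10.81 and 10.62, then 9.64, 10.46 and 10.81, and finally 9.64, 10.52 and 11.25, so both placed the arrays numbered 2 and 3 of 3 groups well above the rest. Nid2, the second nidogen of basement membranes, was 10.64, 10.31 and 10.53, then 10.39, 10.51 and 10.64, then 10.69, 10.75 and 10.81, and finally 10.56, 10.85 and 11.12. Its range over the 12 arrays was 0.81, against 1.90 and 2.05 for the probe sets of Nid1.

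Perlecan is the large heparan sulphate proteoglycan of basement membranes, and its gene Hspg2 was 10.63, 10.29 and 10.46 on shcontrol_A, 10.46, 11.34 and 11.37 on shMsl1_A, 10.53, 10.83 and 11.34 on shcontrol_B, and 10.26, 10.84 and 11.49 on shNsl1_B. Sparc, known for binding collagen IV and for its high expression in parietal endoderm, was 9.79, 9.57 and 9.75, then 9.66, 10.60 and 10.39, then 9.98, 10.60 and 10.61, and finally 9.95, 10.60 and 10.96. Number 1 was the lowest array of shMsl1_A, shcontrol_B and shNsl1_B for both genes.

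**Figure D1:**
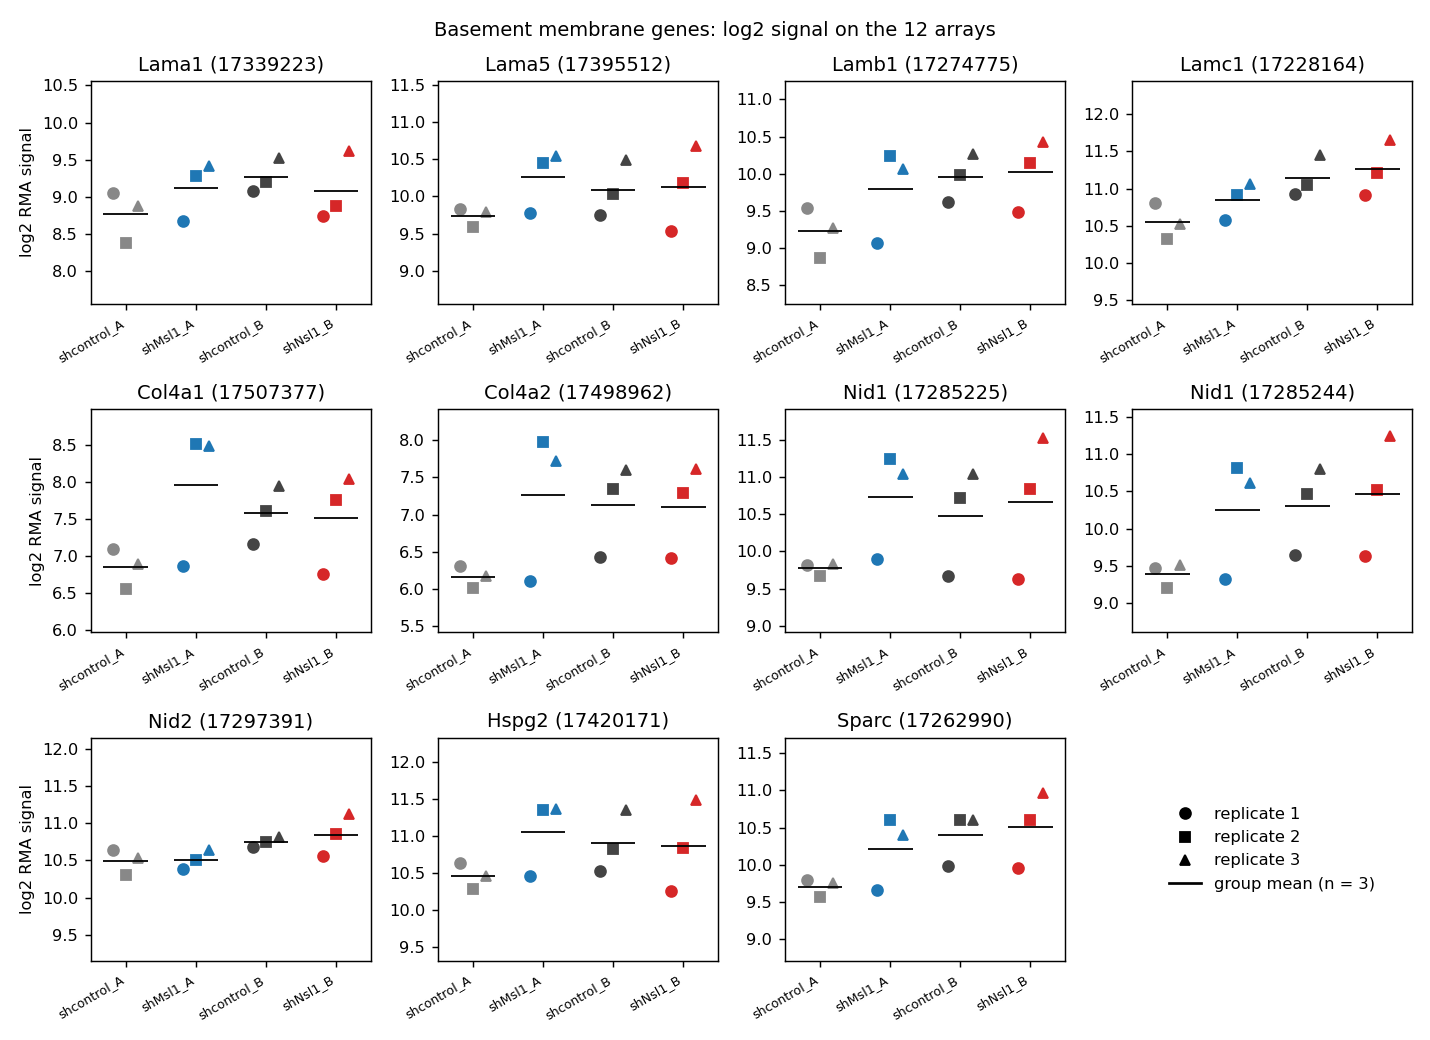
Log2 signal (y axis, 1 panel for each probe set, all panels spanning the same number of log2 units) on the 12 arrays by group (x axis), with the replicate number as the symbol and the group mean as a line. Arrays numbered 1 lie below those numbered 2 and 3 in shMsl1_A for all 11 probe sets, as Col4a1 shows with 6.87 against 8.51 and 8.48, while Nid2 spans 0.81 over all arrays.

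Over the 12 arrays, the 11 probe sets had a median range of 1.39 log2 units, and 10 of them (90.9%), all but Nid2, ranged over more than 1 unit. The median range of all probe sets was 0.73, with 30.6% over 1 unit, and among the 20672 probe sets above the median signal it was 0.91, with 42.7% over 1 unit. The highest array was shNsl1_B 3 for 9 of the 11 and shMsl1_A 2 for both collagen IV genes. The lowest was shcontrol_A 2 for 8 of the 11 and shNsl1_B 1 for Lama5, Hspg2 and 1 probe set of Nid1. After the mean of each group was subtracted, the correlation of a member with the mean of the other members over the 12 arrays (Pearson) was 0.84 for Nid2, 0.88 for Lama1 and 0.91 for Lamc1, and 0.95 to 0.98 for the other 7 genes. These are descriptions, since the members share the same 12 arrays.

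Within experiment B the arrays with the same replicate number deviated from their group means together (r = 0.77, 0.33 and 0.70 over all probe sets for numbers 1, 2 and 3). In a fit with the knockdown group as a term, 10 of the 11 probe sets, all but Nid2, were higher on the arrays numbered 3 than on those numbered 1 by limma at an adjusted p of 0.05 (Benjamini-Hochberg over all probe sets), with 21.9% of all probe sets called and 14.0% called higher. The share was larger among brighter probe sets. With only the 20672 above the median signal fitted, 8986 were called, 5061 of them higher, and 10 of the 11 members. The median log2 difference of the 11 was 0.95 and that of all probe sets was 0.00. Each number stands for 1 control and 1 knockdown array, so that the p-values concern these 4 arrays and the spread left after the 2 terms. The comparison was set when earlier results had already shown that same-numbered arrays of experiment B deviate together, so that its p-values describe a known difference between arrays.

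The largest differences were those of the Nid1 probe sets, at 1.64 ± 0.15 (SE, n = 2 against 2, limma adjusted p = 0.00469), which is 3.11-fold, and 1.39 ± 0.14 (limma adjusted p = 0.00571). Nid2 differed by 0.34 ± 0.13 (limma adjusted p = 0.136). The difference between the nidogens was not itself tested. Col4a2 was higher by 1.19 ± 0.10 (2.28-fold, limma adjusted p = 0.00381) and Col4a1 by 1.03 ± 0.16 (2.04-fold, limma adjusted p = 0.0136). Hspg2 was 1.02 ± 0.13 higher (limma adjusted p = 0.00891) and Sparc 0.82 ± 0.13 (limma adjusted p = 0.0147). Among the laminin chains, Lama5 was higher by 0.95 ± 0.13, Lamb1 by 0.80 ± 0.12, Lama1 by 0.66 ± 0.14 and Lamc1 by 0.64 ± 0.11, with limma adjusted p from 0.0108 for Lama5 to 0.0309 for Lama1.

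The same arrays were high within each group of experiment B. Both arrays numbered 3 lay above both arrays numbered 1 for 11 of 11 probe sets (29.6% of all probe sets), and the 4 arrays numbered 2 and 3 lay above both numbered 1 for 10 of 11, all but Lama1 (19.0%). The median difference of number 3 from number 1 was 0.75 in the control group alone and 1.15 in the knockdown group alone, values without a test. An F test over the 3 numbers called 9 of 11, all but Lama1 and Nid2 (14.6% of all probe sets). Leaving out an array changed the count most: without shNsl1_B 3 it was 3 of 11, namely both Nid1 probe sets and Col4a2, and without shNsl1_B 1 it was 6 of 11. Over all 41345 probe sets the calls fell as well, from 9058 to 2562 without shNsl1_B 3 and to 3871 without shNsl1_B 1. With the arrays scaled to a common median, 9 of 11 were called, all but Lama1 and Nid2, the median was 0.77 and that of all probe sets -0.19. Among all probe sets this scaling called 4359 higher and 7809 lower, against 5779 higher and 3279 lower as deposited.

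In experiment A the arrays with the same number did not deviate together (r = 0.05, -0.23 and 0.21), and the numbers do not pair them. The difference of number 3 from number 1 was called by limma for 0 of 11 probe sets (0.00% of all, and 0 of 11 at an unadjusted p under 0.05). Its median was 0.36, made up of -0.13 in the arrays labelled shcontrol_A and 0.90 in those labelled shMsl1_A.

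**Figure D2:**
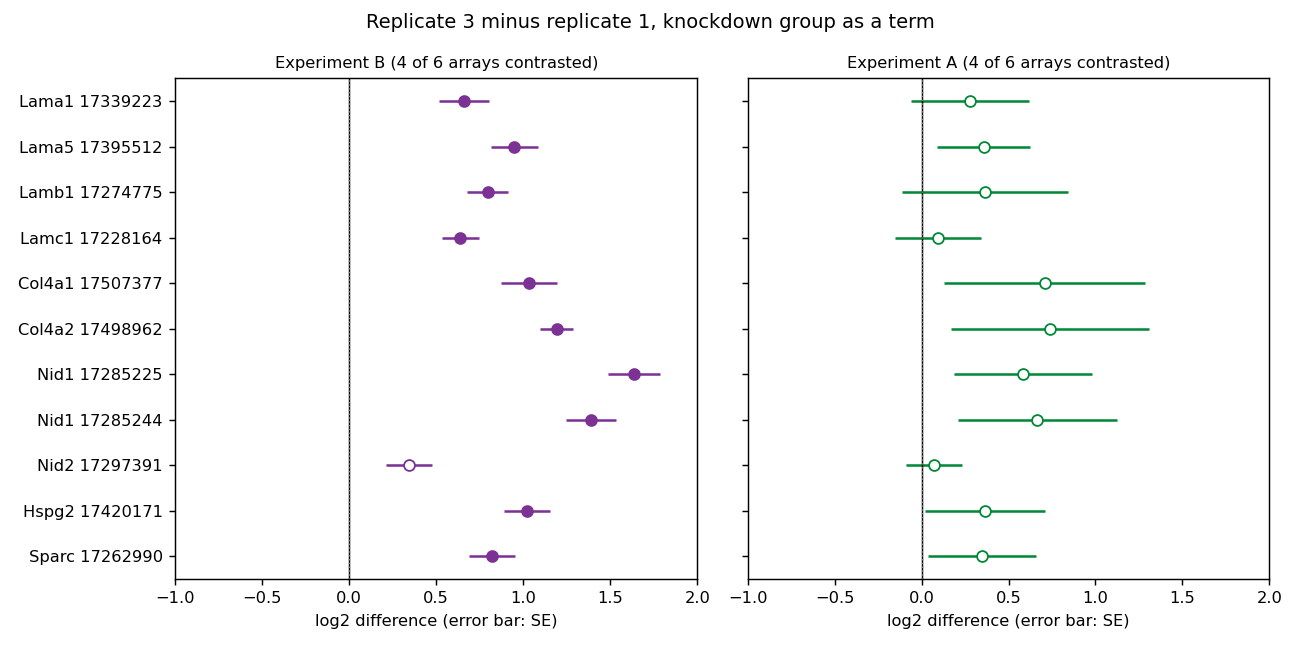
Log2 difference of replicate 3 from replicate 1 (x axis) with its SE for each probe set (y axis) in experiment B (left) and experiment A (right), with a filled point for an adjusted p under 0.05 and a dotted line at the median of all probe sets. In experiment B 10 of 11 points are filled, from 0.64 for Lamc1 to 1.64 for Nid1, and in experiment A none is.

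In experiment B the arrays labelled shNsl1_B were set against those labelled shcontrol_B to ask whether these genes change when this subunit is depleted. None of the 11 probe sets was called by limma (0.00% of all probe sets, with 2175 of all and 0 of 11 at an unadjusted p under 0.05), and the differences ran from -0.19 for Lama1 to 0.18 for Nid1 (17285225), around a median of 0.06. With the replicate number as a block the standard errors shrank from 0.15 to 0.57 without it to 0.08 to 0.13 with it, the difference of Col4a2 was -0.02 with a 95% interval of -0.22 to 0.18, and that of Nid1 0.18 with an interval of -0.13 to 0.49. The smallest adjusted p among the 11 was then 0.558, for Lama1 at -0.19 ± 0.12 (limma, interval -0.48 to 0.11). By fold change rank ordering statistics (FCROS), the ranking that the study used, computed anew here with settings that may differ, 0 of 11 passed (5.21% of all). The knockdown arrays were all above the control arrays for 0 of 11 (4.66% of all). Within pairs of the same number, the knockdown array was lower for 11 of 11 at number 1 (median -0.13), higher for 8 of 11 at number 2 (median 0.11) and higher for 11 of 11 at number 3 (median 0.18). These counts were not made over all probe sets. The members vary together over the same arrays, so that the counts are descriptions of single pairs and not a result about these genes.

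In experiment A as labelled, all 11 probe sets had a positive difference between shMsl1_A and shcontrol_A, but limma called 0 of them (0.00% of all probe sets, with 3163 of all at an unadjusted p under 0.05). Among the 11, the Nid1 probe set 17285225 alone was under 0.05 before adjustment. The differences were 1.10 ± 0.46 for Col4a1, 1.10 ± 0.48 for Col4a2, 0.96 ± 0.35 and 0.86 ± 0.39 for Nid1, 0.60 ± 0.26 for Hspg2, 0.57 for Lamb1, 0.52 for Lama5, 0.51 for Sparc, 0.35 for Lama1, 0.30 for Lamc1 and 0.02 for Nid2, with adjusted p from 0.622 to 0.966 by limma. FCROS passed Col4a1 and 1 probe set of Nid1 (2 of 11, 3.02% of all). Every array labelled shMsl1_A was above every array labelled shcontrol_A for 1 of 11, Nid1 by probe set 17285225 (6.38% of all).

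The array labelled shMsl1_A 1 lay within the range of shcontrol_A for 10 of 11 probe sets, whereas shMsl1_A 2 and 3 both lay above all controls for 10 of 11, all but Nid2. These counts were not made over all probe sets, so that they describe the arrays and are not a result about these genes. Without shMsl1_A 1, limma called 8 of 11 higher, namely Lama5, Lamb1, Col4a1, Col4a2, both of Nid1, Hspg2 and Sparc, against 16.4% of all probe sets called and 10.4% called higher. In that fit the array with the lowest Msl1 of its group is gone, and 1 of the 2 arrays left, shMsl1_A 2, has more Msl1 than any control. Without the 2 arrays whose Msl1 goes against their labels, 0 of 11 were called and the median fell from 0.57 to 0.35.

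The difference between the knockdown effects, Nsl1 minus Msl1, had a median of -0.54 over the 11 and was called by limma for 0 of 11 (0.00967% of all probe sets, and 0 of 11 at an unadjusted p under 0.05). The control groups of the experiments, which are both labelled with the non-target shRNA, were compared with each other. All 11 probe sets had a higher mean on shcontrol_B than on shcontrol_A, with a median difference of 0.69, against -0.03 for all probe sets. Limma called 0 of 11 (5.41% of all), and 7 of 11 were at an unadjusted p under 0.05 (29.3% of all). The smallest adjusted p was 0.0777, for Sparc at 0.69 ± 0.19 (limma). All arrays of shcontrol_B lay above all arrays of shcontrol_A for 8 of 11 (13.9% of all). Without shcontrol_B 1, limma called 6 of 11, Lamb1, Col4a1, Col4a2, both of Nid1 and Sparc (20.3% of all). Without shcontrol_A 2, labelled a control but low in Msl1, limma called 0 of 11 and 0 of all probe sets. The median difference of the 11 was then 0.56, and 2 of 11 were at an unadjusted p under 0.05 (21.3% of all). Experiment and any batch of culture or hybridization cannot be told apart in this comparison.

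**Figure D3:**
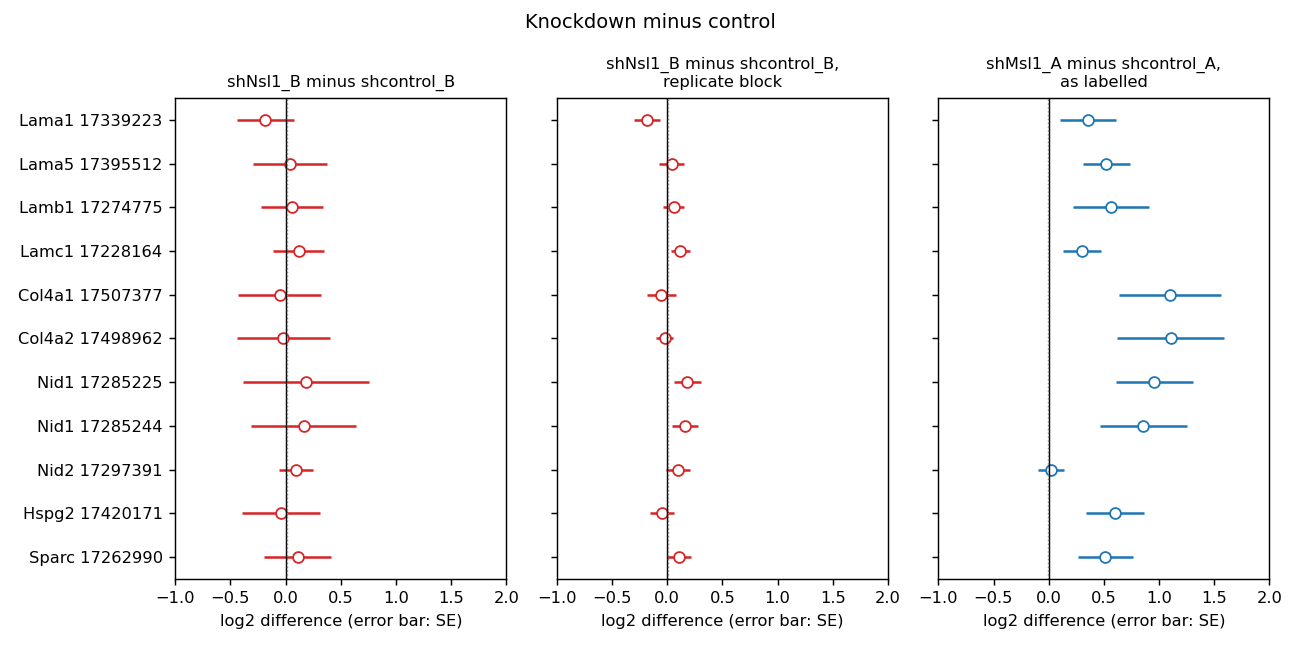
Log2 difference of knockdown from control (x axis) with its SE for each probe set (y axis), for Nsl1 without and with the replicate block and for Msl1 as labelled. No point is filled, as none has an adjusted p under 0.05, and the error bars of the Nsl1 comparison are narrower with the block.

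Other genes of the basement membrane and of its assembly were counted in the replicate comparison of experiment B, number 3 against number 1. In it 14.0% of all probe sets were called higher, and 5061 of 20672 when only those above the median signal were fitted. Of 27 other measured components, 8 were higher and 1 lower, with a median of 0.24 and 9 of 27 below 0. Npnt (nephronectin, an integrin ligand) differed by 1.91 ± 0.15, the nephritis antigen relative Tinagl1 by 1.77 ± 0.21, Agrn (agrin, a heparan sulphate proteoglycan) by 1.30 ± 0.12 and the fibulin Efemp1 by 1.28 ± 0.20. The gene that was lower was Smoc1, at -0.41 ± 0.11 (named after its value was seen). It was only just under the threshold (limma adjusted p = 0.04996). The other collagen IV chains, also named after their values were seen, all missed the threshold, with -0.08 for Col4a3, -0.17 for Col4a4, 0.46 for Col4a5 and 0.16 for Col4a6. Their signals were low, between 4.42 and 5.01, 4.75 and 5.23, 5.11 and 5.96, and 5.19 and 5.46, beside array medians of 5.58 to 5.78. Lama2, Col15a1 and Frem1, which count in the median of 0.24, also lay below all array medians (highest 5.25, 5.12 and 4.71, named after their values were seen). A change in genes this dim may go unseen.

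Of 18 measured genes of collagen IV processing and crosslinking, 11 were higher and none lower, with a median of 0.58. They included Plod2, a lysyl hydroxylase, at 1.68 ± 0.12, Serpinh1, the collagen chaperone HSP47, at 1.45 ± 0.12, Pxdn, peroxidasin, which crosslinks collagen IV, at 1.15 ± 0.12, and the lysyl oxidase relative Loxl1 at 0.88 ± 0.11. Of 12 receptors, 5 were higher and none lower, with a median of 0.53: the laminin-binding integrin alpha chains Itga7 at 1.34 ± 0.15 and Itga6 at 1.02 ± 0.10, the beta chains Itgb1 at 1.12 ± 0.12 and Itgb4 at 0.67 ± 0.16, which form receptors with such chains, and the laminin receptor Bcam at 0.57 ± 0.14 (named after its value was seen). In the Nsl1 comparison none of the genes of these 3 lists was called by limma, with 1 of the other components at an unadjusted p under 0.05 and none of the other lists, and their medians were 0.07, 0.04 and 0.05.

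Markers of other cell types were counted in the same comparison, in which 21.9% of all probe sets were called and 14.0% called higher. Of 19 measured markers of feeder fibroblasts, 9 were higher on number 3 than on number 1 in experiment B and none lower, among them the collagen genes Col1a1 at 2.03 ± 0.19 and Col5a1 at 1.56 ± 0.16, the receptor Pdgfrb at 2.07 ± 0.23 and fibronectin Fn1 at 0.95 ± 0.11, with a median of 0.40. The mean log2 signal of the list ranged from 7.02 to 7.21 over shcontrol_A, from 7.13 to 7.88 over shMsl1_A, from 7.25 to 7.87 over shcontrol_B and from 7.16 to 8.02 over shNsl1_B, with number 1 the lowest in the last 3 groups. The other markers named here were chosen after their values were seen. The matrix protein gene Postn had the largest difference of the list, 2.58 ± 0.31 (limma adjusted p = 0.0076), and lay between 4.01 and 9.24 over the 12 arrays. The contractile genes Acta2 and Tagln were higher by 1.04 ± 0.26 and 0.87 ± 0.15. Of the proteoglycan genes, Lum lay between 3.40 and 3.77 and Dcn between 5.09 and 5.69, with differences of 0.09 and 0.06, and the surface marker Thy1 lay between 6.55 and 7.36, with a difference of 0.02, all 3 missing the threshold. A log2 RMA signal does not reach 0. Fewer cells of a type and less RNA for each cell cannot be told apart in bulk RNA, and the part of other cells in the differences of the basement membrane genes was not tested.

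Of 18 markers of extraembryonic endoderm, 3 were higher, the plasminogen activator Plat at 1.69 ± 0.09 and the keratins Krt18 at 1.49 ± 0.15 and Krt8 at 1.35 ± 0.14, and 2 were lower, the endocytic receptor Cubn at -0.81 ± 0.11 and the transcription factor Sox7 at -0.64 ± 0.15, the latter named after its value was seen. The median was -0.18, with 11 of 18 below 0. Over all probe sets 21.9% were called and 14.0% called higher, so that 3 of 18 higher is near the share of the whole array. The transcription factors that define this lineage, Gata4, Gata6 and Sox17, chosen here as defining markers with their values known, differed by -0.26, -0.22 and 0.20, each missing the threshold. Over the 12 arrays Gata4 lay between 6.34 and 7.23, Gata6 between 5.52 and 6.64 and Sox17 between 5.01 and 5.51, beside array medians of 5.58 to 5.78. Other markers that missed the threshold went both ways, with Pdgfra at 0.53, Dab2 at 0.33, Hnf4a at -0.31 and Amn at -0.41 (named after their values were seen). Of 12 markers of pluripotent cells, Utf1 was lower at -1.34 ± 0.09 and no other was called, with a median of -0.14. Within each of shMsl1_A, shcontrol_B and shNsl1_B their mean signal was highest on number 1, the array of the group with the lowest mean of the members. Single markers, named with their values known, did not all follow that mean. On shcontrol_B, Pou5f1, Sox2, Zfp42, Esrrb, Dppa4, Fgf4 and Utf1 were highest on number 1, and Nanog, Klf4, Tfcp2l1, Tdgf1 and Dppa5a were not. Utf1 had a large part in the mean there, with 12.05, 11.26 and 10.74. In the array group shMsl1_A the mean of the pluripotent cell markers was 10.22, 9.64 and 9.79, beside 9.15, 10.11 and 10.07 for the mean of the 10 members.

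**Figure D4:**
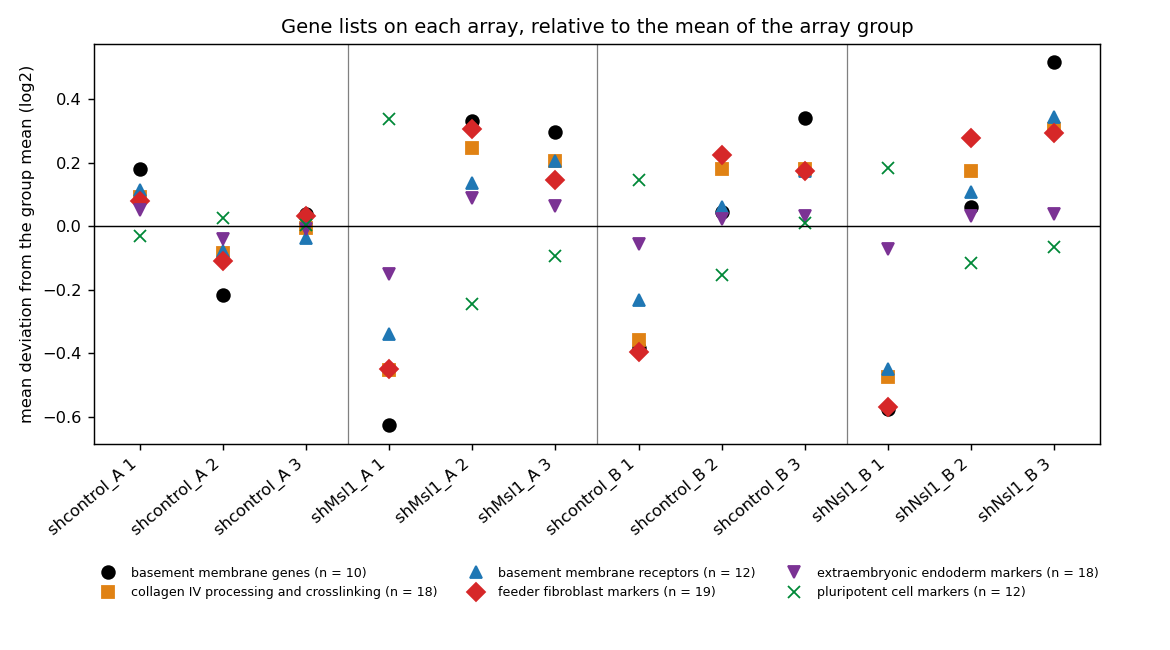
Mean deviation from the group mean in log2 units (y axis) on each of the 12 arrays (x axis) for the 10 basement membrane genes and 5 gene lists. The basement membrane genes, their processing genes, their receptors and the feeder fibroblast markers lie below 0 on number 1 of shMsl1_A, shcontrol_B and shNsl1_B, where the pluripotent cell markers lie above 0 (0.34, 0.15 and 0.18). The extraembryonic endoderm markers also lie below 0 on these arrays (-0.15, -0.06 and -0.07).

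Outside the members, the genes whose group-centred signal was most like the mean of the 10 over the 12 arrays were Sptbn1, a spectrin (r = 0.996), Uggt1, a glycoprotein folding sensor of the endoplasmic reticulum (0.992), Fn1 (0.991), Aplp2 (0.990), the integrin Itga6 (0.988), the growth factor Igf2 (0.988), the plexin Plxna1 (0.988) and Golm1 (0.988). Igf2 had the widest range of these 8 over the arrays, 3.20 log2 units, and Uggt1 the narrowest, 0.89. Fn1 also belongs to the feeder fibroblast list and Itga6 to the receptor list.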

How the data were processed

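Per the labels and methods, the authors ran the default robust multi-array average (RMA) of Affymetrix Expression Console 1.1, with its background correction, quantile normalization and summary of probes, and deposited log2 signals for 41345 probe sets on 12 arrays. These were used as deposited, without a filter. By the platform annotation 23521 probe sets had 1 gene symbol, 1820 several and 16004 none, and no probe set with several symbols held a member. No positions of probe sets are printed, as the sources used here name no build for them. Promoter windows came from RefSeq (GRCm38.p6).

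Comparisons were fitted to all probe sets in R 4.3.3 with limma 3.58.1 (lmFit, eBayes, two-sided), with Benjamini-Hochberg adjustment over 41345 probe sets and a threshold of 0.05. Each knockdown was compared with the controls of its own experiment without a block. The replicate comparison had the knockdown group as a term. The difference between the effects was fitted on all 12 arrays. Same-numbered arrays were compared by the correlation of their deviations from the means of the labelled groups. They deviated together in experiment B only, as a feature of the data and not of the labels. FCROS used the 9 pairs of a knockdown and a control array in each experiment and its limits are not adjusted for multiple tests. It was computed anew, so that its counts need not equal those of the study.

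Alternatives were median scaling, leaving out probe sets at or below the median signal, an intensity trend, the replicate block, a fit of all arrays, FCROS, and leaving out arrays. The fits were tested on simulated data. In the text every member was named, with up to 4 genes of each list with the smallest p and the 8 genes most like the members' mean. Other genes were named after their values were seen, as the text says beside them. For a gene of a list the probe set with the highest mean was used. The lists hold 28, 12, 20, 18, 20 and 12 genes, of which 4 were not matched and are not reported here. The members, the lists and the comparison of replicate numbers were chosen with earlier results of these data known. Precision is limited by the number of arrays.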

Additional observations from a re-analysis of the deposited data

How the results depend on the processing

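For the members, 0 of 11 were called under every alternative run for the Nsl1 knockdown, the difference between the knockdown effects and replicate 3 against 1 in experiment A. For the Nsl1 knockdown the count over all probe sets was 55 in a fit of all 12 arrays and 2155 by FCROS, against 0 in limma with or without the replicate block. Leaving out an array turned the sign of 10 of its 11 uncalled member differences, which ranged from -0.23 to 0.34 for Lama5, -0.15 to 0.33 for Lamb1, -0.082 to 0.29 for Lamc1, -0.32 to 0.32 for Col4a1, -0.37 to 0.33 for Col4a2, -0.25 to 0.70 and -0.23 to 0.58 for Nid1, -0.041 to 0.24 for Nid2, -0.36 to 0.26 for Hspg2 and -0.12 to 0.38 for Sparc. Lama1 stayed negative.

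For the Msl1 knockdown as labelled, FCROS passed 1247 probe sets and 2 of the members. Leaving out an array gave 0 to 6771 probe sets and 0 to 8 members, the upper values without shMsl1_A 1. Nid2 was -0.038 with median scaling, -0.068 without the 2 arrays whose Msl1 level goes against their labels, and -0.071 to 0.094 when an array was left out. The count for the difference between the effects, 4 probe sets, was 1 with probe sets at or below the median signal left out, 0 with median scaling, an intensity trend, the replicate block or without those 2 arrays, and 0 to 3 when an array was left out. For the control groups the 2238 probe sets became 0 without the dim probe sets or without those 2 arrays, and 0 to 8382 when an array was left out, with 0 to 6 members. Median scaling moved the median of all probe sets to -0.10 there, with that of the members at 0.62.

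For replicate 3 against 1 in experiment B, leaving out an array gave 2562 to 6741 probe sets and 3 to 9 members, and the median member difference stayed between 0.76 and 1.14. In experiment A the median was -0.13 in the control arrays alone and 0.90 in the knockdown arrays alone, and -0.21 to 0.94 when an array was left out. The cause of these changes was not tested, beyond the smaller number of arrays or probe sets in the fit. In experiment A, where same-numbered arrays did not deviate together as labelled, the replicate block left the count at 0. With 3 arrays in a group, differences of the size of the spread between them could not be detected.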
